A study of Mus musculus with 21 samples.

Results

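The 9 genes described here encode the core factors that build iron-sulfur clusters in mitochondria and hand them on: Nfs1, Lyrm4, Iscu, Hscb, Glrx5, Isca1, Isca2, Bola3 and Nfu1. They were taken by their symbols from the authors' tables, which hold 22483 mouse genes. All 9 were found, and all 9 were among the 12360 genes with enough counts to be tested. The libraries came from MEDEP cells (line BRC5), an established line of mouse red cell progenitors made from embryonic stem cells. The groups were cells after 12 h of differentiation with succinyl acetone (SA), which blocks heme synthesis, cells after 12, 24, 36, 48 and 72 h without SA, and undifferentiated cells at 0 h. Undifferentiated cells grew in stem cell factor (SCF) and dexamethasone, and differentiation meant taking both away and adding 4 U/ml erythropoietin (Epo). Medium with fetal calf serum, ascorbic acid, ITS complement and alpha-TG is named once in the labels, for all samples. Each of the 7 groups had 3 libraries of strand-specific polyadenylated RNA, which the design text calls biological replicates. All libraries came from 1 line, so p-values measure the spread between samples of that line.

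Iron-sulfur clusters are small cofactors of iron and sulfide that carry electrons, catalyse reactions or hold proteins in shape. In mitochondria the desulfurase Nfs1, held stable by Lyrm4, takes sulfur from cysteine, and a cluster forms on the scaffold Iscu. The co-chaperone Hscb and its partner Hspa9 release that cluster to the glutaredoxin Glrx5. The A-type proteins Isca1 and Isca2 act in making the larger clusters, and Bola3 and Nfu1 help hand those to late clients such as lipoate synthase. Red cell precursors depend on the route because mammalian ferrochelatase, the last enzyme of heme synthesis, is itself an iron-sulfur protein, and because a cluster switches the iron regulatory protein Aco1. Loss of GLRX5 or HSCB function in humans is known to cause sideroblastic anemia.

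Library totals lay between 16.7 and 39.3 M counts. The 10 erythroid markers were all detected and took 214124 to 297800 counts-per-million (CPM) of the library total at 72 h, against 2897 to 3096 CPM at 0 h. The 6 pluripotent cell markers summed to at most 2.12 CPM in any library. The 6 megakaryocyte and platelet markers, 1 of them at 0 throughout, summed to 28.5 to 37.2 CPM at 0 h, 830 to 922 CPM at 48 h and 341 to 420 CPM at 72 h. The 6 mast cell and basophil markers, 1 of them at 0 throughout, summed to 1.69 to 4.18 CPM at 72 h, against 22.1 to 33.0 CPM at 0 h. The 6 macrophage and monocyte markers reached at most 5.59 CPM, the 6 neutrophil markers (3 at 0) 2.53 CPM and the 6 lymphocyte markers (2 at 0) 0.373 CPM. The 6 stromal markers summed to 16.1 CPM in replicate 1 at 36 h (the lowest 36 h library had 0.0906 CPM) and to at most 1.10 CPM in each library of the other groups. The part of these markers in the results on the assembly genes was not tested. Without that 36 h library, 7 of the 9 genes passed the test at 36 h against 24 h and 8 passed it at 48 h against 36 h, the same counts as with it.

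Values are given on a pair of scales that part as the cells mature. Globin genes took 35.2% ± 3.07 of counts at 72 h, against 0.0613% ± 0.0143 at 0 h (SD, n = 3 each). Transcripts-per-million (TPM) give a gene's share of all messages per unit of length, and on that scale most genes lost share. The median tested gene changed by -2.57 at 72 h against 0 h on the log2(TPM + 1) scale. Scaling by TMM (trimmed mean of M-values) sets the libraries by the bulk of their genes, and on it the same median was -0.13. Each library total is multiplied by a TMM factor before counts are divided by it, so a lower factor raises the scaled values. These factors were 1.64 to 1.70 at 0 h and 1.32 to 1.37 at 24 h. They were 0.627 to 0.717 at 36 h and 0.423 to 0.570 at 72 h. A log2 change is given here on the TMM scale, with its standard error (SE), from edgeR's quasi-likelihood test with Benjamini-Hochberg adjustment over all tested genes, unless TPM is named. A log2 change on the TPM scale comes from limma on log2(TPM + 1), which understates the change of low genes. Neither scale measures RNA per cell, and in bulk libraries fewer cells of a type and less RNA per cell cannot be told apart.

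At 72 h against 0 h, 4 of the 9 genes were higher on both scales: the scaffold Iscu, the co-chaperone Hscb, the glutaredoxin Glrx5 and the A-type protein Isca1. Nfu1 was lower on both. On the TMM scale 6 genes rose, 1 fell and 2 did not pass the test, where 89.8% of all tested genes were called, 43.3% higher and 46.5% lower. The median log2 change of the 9 genes was 2.56, beside -0.13 over all tested genes. On the TPM scale 4 genes rose and 5 fell, where 5.26% of genes were called higher and 90.9% lower. Lyrm4 and Bola3 were called higher on the TMM scale and lower on the TPM scale. A test of any difference among the 6 times without SA called 8 of the 9 genes, where 97.6% of all genes were called, and Nfs1 did not pass it (adjusted p = 0.209, edgeR).

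**Figure D1:**
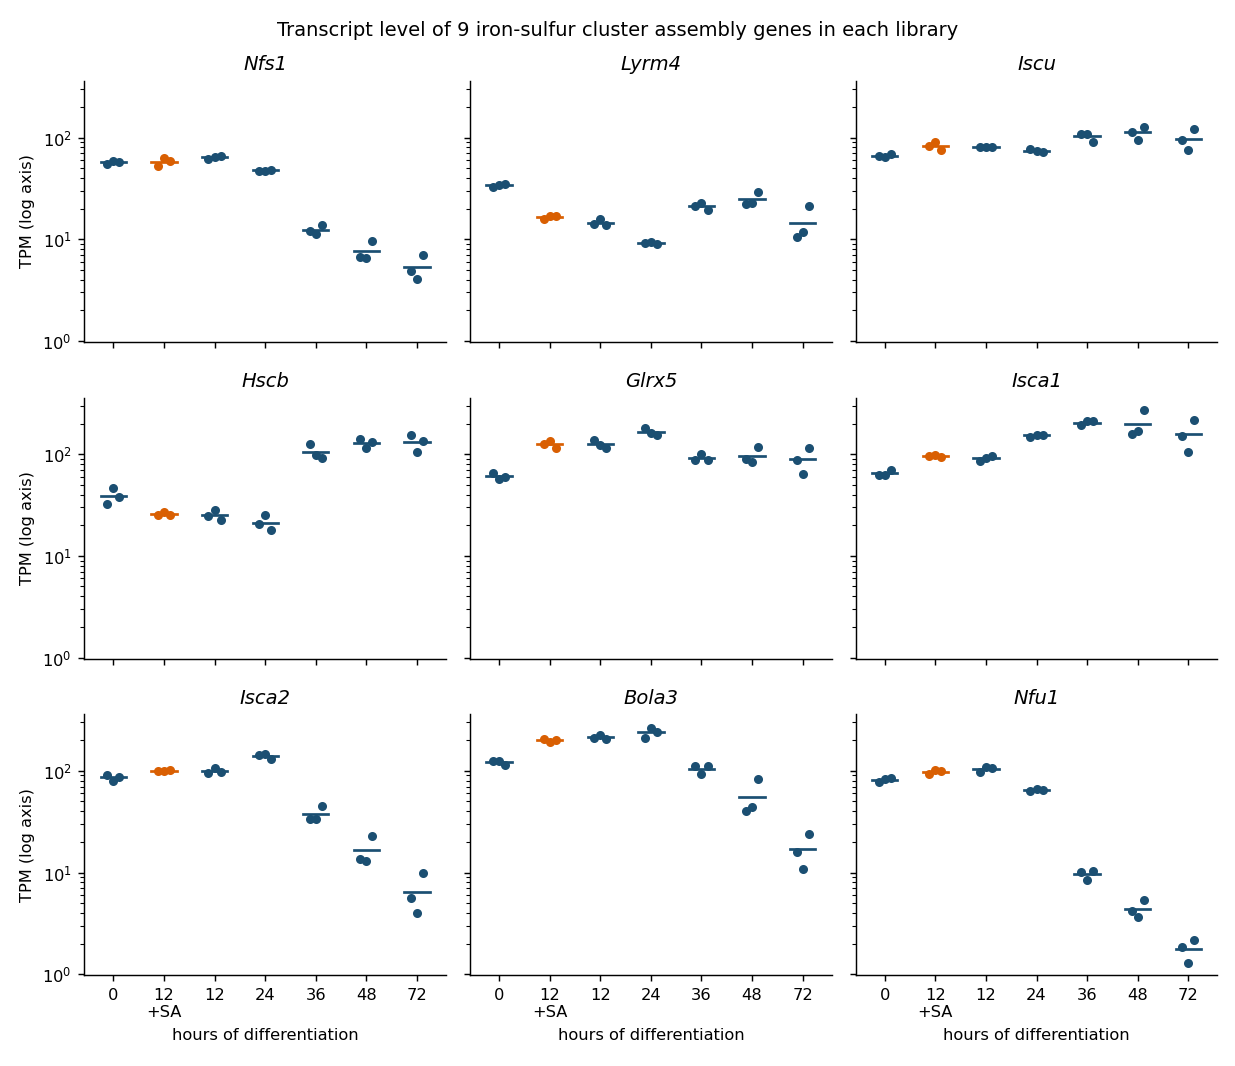
TPM (log axis) of the 9 genes against hours of differentiation; points are libraries, short lines are means of 3 libraries, and orange marks 12 h with SA. Isca1, Hscb, Iscu and Glrx5 averaged 157, 132, 97.1 and 89.0 TPM at 72 h, where Isca2, Nfs1 and Nfu1 averaged 6.47, 5.31 and 1.76 TPM.

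The sulfur-donating pair of Nfs1 and Lyrm4 did not move together. Nfs1 lies on chromosome 2 at 156123639 to 156144186 on the minus strand (GRCm38, as for all genes here), and Lyrm4 on chromosome 13 at 35978395 to 36117526, also on the minus strand. Nfs1, the cysteine desulfurase, had 55.0, 59.1 and 57.6 TPM at 0 h, 47.3, 47.4 and 48.3 TPM at 24 h, 12.0, 11.2 and 13.8 TPM at 36 h, and 4.84, 4.04 and 7.05 TPM at 72 h. Its share of messages was lower in every library from 36 h on than in any earlier library. On the TMM scale Nfs1 passed no test in any of the 7 comparisons, with a log2 change of 0.15 ± 0.09 at 72 h against 0 h (adjusted p = 0.13), while on the TPM scale that difference was -3.23 and was called lower. Without replicate 1 at 72 h, Nfs1 was called higher on the TMM scale against 0 h (0.27, adjusted p = 0.000836) and against 48 h (0.19, adjusted p = 0.0207).

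Lyrm4, the small stabilising partner of Nfs1, dipped first and then rose at 36 h. Its TPM were 32.4, 34.5 and 34.8 at 0 h, 14.0, 15.8 and 13.7 at 12 h, 9.15, 9.38 and 8.95 at 24 h, 21.02, 22.6 and 19.4 at 36 h, 22.0, 22.7 and 29.3 at 48 h, and 10.4, 11.7 and 20.99 at 72 h. The 24 h libraries were the lowest, and the groups at 24 h and 36 h did not overlap. Lyrm4 fell by 1.17 ± 0.19 at 12 h against 0 h (adjusted p = 1.82e-05). It rose by 3.25 ± 0.20 at 36 h against 24 h (adjusted p = 8.44e-12), and its TPM also rose there, by 1.11. Its log2 change at 72 h against 0 h was 2.56 ± 0.19 on the TMM scale and -1.24 on the TPM scale, both past the threshold.

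Iscu, the scaffold on which clusters are built, held its share of messages while most genes lost theirs. The gene lies on chromosome 5 at 113772748 to 113778288 on the plus strand. It had 65.5, 63.6 and 68.2 TPM at 0 h, and 109, 109 and 90.1 TPM at 36 h. At 72 h it had 94.9, 74.9 and 122 TPM. All 72 h libraries lay above all 0 h libraries, with the widest spread at 72 h. On the TMM scale Iscu rose by 2.59 ± 0.15 at 36 h against 24 h (adjusted p = 2.92e-12) and by 4.24 ± 0.16 at 72 h against 0 h (adjusted p = 3.7e-16). The TPM changes were 0.47 and 0.53, both called higher. Its rise of 0.43 ± 0.14 at 72 h against 48 h did not hold without replicate 3 at 48 h (0.28, adjusted p = 0.093) or replicate 2 at 72 h (0.28, adjusted p = 0.106).

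Hscb, the co-chaperone that helps move the cluster off Iscu, had the largest rise of the 9 genes between neighbouring times. It lies on chromosome 5 at 110829070 to 110839777 on the minus strand. Its TPM were 32.2, 47.0 and 37.6 at 0 h, 24.5, 28.0 and 22.4 at 12 h, 20.6, 25.002 and 17.8 at 24 h, 125, 98.6 and 91.1 at 36 h, 141, 114 and 131 at 48 h, and 154, 105 and 136 at 72 h. Every library from 36 h on was above every earlier one. Hscb fell by 0.65 ± 0.18 at 12 h against 0 h (adjusted p = 0.00415), and the TPM change of -0.61 was called as well. At 36 h against 24 h it rose by 4.02 ± 0.18 on the TMM scale (adjusted p = 1.06e-13), a higher change than 98.0% of tested genes had, and by 2.26 on the TPM scale. At 72 h against 0 h the log2 change was 4.93 ± 0.19 (adjusted p = 4.72e-16) and 1.74 on the TPM scale.

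Glrx5, the glutaredoxin that takes the cluster over, had the largest rise of the 9 genes at 12 h against 0 h. The gene lies on chromosome 12 at 105032688 to 105042906 on the plus strand. It had 64.6, 57.5 and 59.9 TPM at 0 h, and 139, 124 and 115 TPM at 12 h. At 24 h it had 181, 163 and 155 TPM. At 36 h it had 87.8, 100.1 and 88.1 TPM, and at 72 h 88.4, 64.3 and 114 TPM. TPM thus peaked at 24 h, and the 72 h and 0 h libraries overlapped on this scale. On the TMM scale Glrx5 was higher at each step, by 1.12 ± 0.12 at 12 h against 0 h (adjusted p = 9.02e-08) and by 4.36 ± 0.13 at 72 h against 0 h (adjusted p = 2.33e-17). The change at 36 h against 24 h had opposite signs on the scales, at 1.24 ± 0.12 on the TMM scale (adjusted p = 8.34e-09) and -0.85 on the TPM scale, both past the threshold.

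The A-type proteins Isca1 and Isca2, members of 1 protein family, parted after 24 h. Isca1 lies on chromosome 13 at 59755409 to 59769810 on the minus strand, and Isca2 on chromosome 12 at 84773251 to 84775088 on the plus strand. Isca1 had 61.9, 63.0 and 69.6 TPM at 0 h, 147, 156 and 156 TPM at 24 h, 192, 210.4 and 210 TPM at 36 h, and 150, 104 and 217 TPM at 72 h. Isca2 had 91.4, 79.9 and 86.9 TPM at 0 h, and 143, 146 and 130.3 TPM at 24 h. It then had 33.3, 33.8 and 45.4 TPM at 36 h, and 5.57, 3.97 and 9.86 TPM at 72 h. In TPM both were higher at 24 h than at 0 h in all libraries, and at 36 h and 72 h Isca1 lay above its 0 h libraries while Isca2 lay below its own. Isca1 rose by 2.46 ± 0.12 at 36 h against 24 h (adjusted p = 2.91e-13) and by 5.03 ± 0.14 at 72 h against 0 h (adjusted p = 3.63e-18), the largest rise of the 9 genes at that time. Isca2 rose by 0.82 ± 0.11 at 24 h against 12 h (adjusted p = 8.5e-06), then fell by 0.61 ± 0.12 at 48 h against 36 h (adjusted p = 0.00023) and by 0.73 ± 0.12 at 72 h against 48 h (adjusted p = 3.79e-05). At 72 h against 0 h Isca2 had a log2 change of -0.25 ± 0.12 (adjusted p = 0.0616), and it was called lower without replicate 2 at 0 h (-0.31, adjusted p = 0.0429), replicate 3 at 0 h (-0.30, adjusted p = 0.0454) or replicate 3 at 72 h (-0.42, adjusted p = 0.00336). The rise of Isca1 at 72 h against 48 h, 0.41 ± 0.11, was 0.25 without replicate 3 at 72 h and no longer called (adjusted p = 0.0522).

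Bola3 and Nfu1, which act late and serve lipoate synthase and respiratory complexes, both lost share of messages after 24 h, Nfu1 the most. Bola3 lies on chromosome 6 at 83349147 to 83360136 and Nfu1 on the same chromosome at 87009236 to 87028461, both on the plus strand. Bola3 was the most abundant of the 9 messages at 0, 12 and 24 h, with 126, 126 and 115 TPM at 0 h, 211, 262 and 243 TPM at 24 h, and 15.8, 10.8 and 24.2 TPM at 72 h. On the TMM scale it rose at 12, 24 and 36 h, by 0.81 ± 0.12, 0.49 ± 0.11 and 0.77 ± 0.12 over the time before, the last of these being -1.17 and called lower on the TPM scale. It then fell by 0.46 ± 0.12 at 48 h and by 0.96 ± 0.12 at 72 h (adjusted p = 0.00228 and 7.62e-07). Nfu1 had 78.5, 82.5 and 84.1 TPM at 0 h, and 97.4, 109 and 106 TPM at 12 h. At 24 h it had 62.9, 65.6 and 64.7 TPM. It then had 10.1, 8.37 and 10.3 TPM at 36 h, and 1.85, 1.28 and 2.15 TPM at 72 h. After a rise of 0.37 ± 0.07 at 12 h (adjusted p = 0.000243), Nfu1 fell at each later step on both scales. It fell by 1.84 ± 0.09 on the TMM scale at 72 h against 0 h (adjusted p = 2.18e-14) and by 4.92 on the TPM scale.

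**Figure D2:**
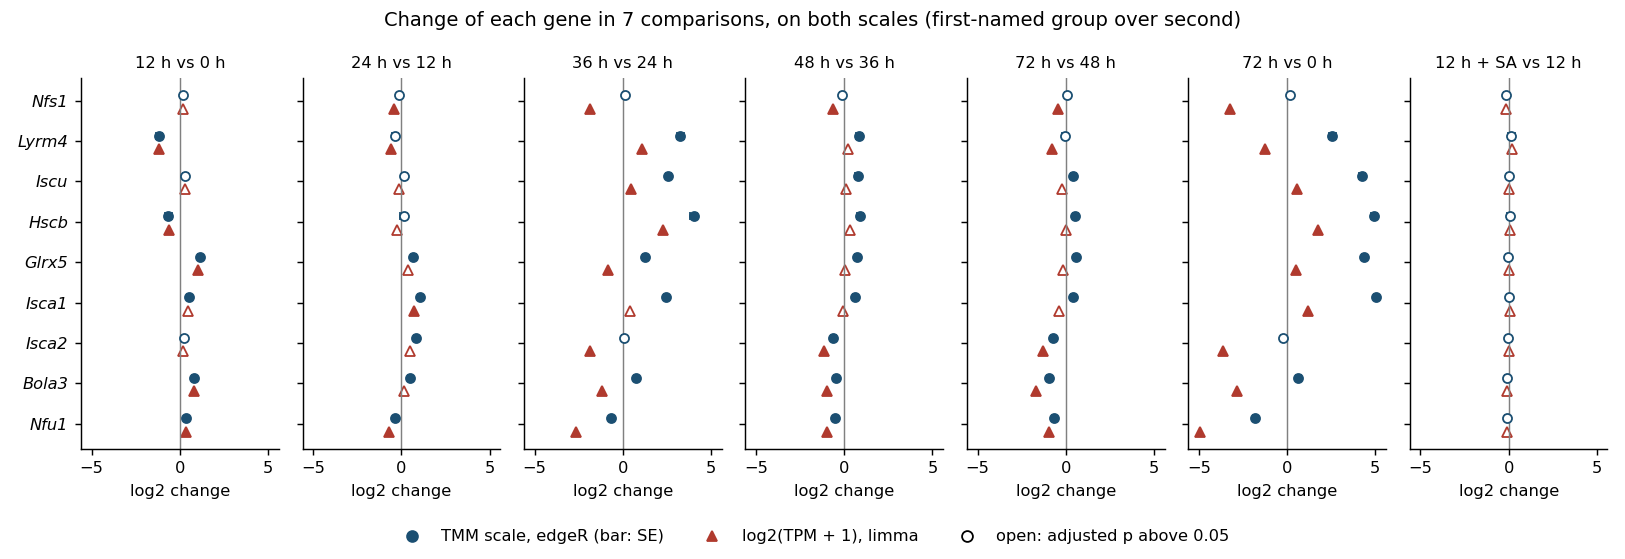
Log2 change of each gene in 7 comparisons, the first-named group over the second; blue points are the TMM scale with SE bars, red triangles the log2(TPM + 1) scale, and open symbols did not pass the threshold of 0.05. Hscb has the largest change of the 9 at 36 h against 24 h (4.02), and no symbol is filled for 12 h with SA against 12 h.

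Step by step, the widest movement came between 24 h and 36 h. At 12 h against 0 h, 4 genes were called higher and 2 lower, where 52.9% of all genes were called, 25.3% higher and 27.6% lower, and on the TPM scale 3 were higher and 2 lower (20.9% and 31.1% of all genes). At 24 h against 12 h, 4 were higher and 1 lower, where 41.1% of all genes were called, 19.1% higher and 22% lower, and on the TPM scale 1 was higher and 3 lower (6.32% and 45% of all genes). At 36 h against 24 h, 6 were higher and 1 lower, where 73.2% of genes were called, 34.1% higher and 39% lower. The median of the 9 genes was 1.24 there, beside -0.03 over all tested genes. On the TPM scale 3 of the 9 genes, Iscu, Hscb and Lyrm4, were higher in that step and 5 lower, where 4.3% of all genes were called higher and 89.1% lower. At 48 h against 36 h, 5 were higher and 3 lower, where 49.8% of genes were called, 20% higher and 29.7% lower. None of the 9 was higher on the TPM scale in that step and 4 were lower (2.58% and 62.5% of all genes). At 72 h against 48 h, 4 were higher and 3 lower, where 59.2% of genes were called, 24.7% higher and 34.5% lower, and on the TPM scale none was higher and 5 were lower (4.59% and 59.3% of all genes). The genes called higher in the last step were Iscu, Hscb, Glrx5 and Isca1, and those called lower were Isca2, Bola3 and Nfu1.

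Ratios between messages of the same library do not depend on how libraries are scaled. The ratio of Isca1 to Isca2 TPM was 0.756 ± 0.0679 at 0 h, 1.10 ± 0.0840 at 24 h, 5.54 ± 0.830 at 36 h, 12.1 ± 0.682 at 48 h and 25.03 ± 2.66 at 72 h (SD, n = 3 each). The scaffold Iscu gained on the desulfurase Nfs1, with an Iscu to Nfs1 ratio of 1.15 ± 0.0639 at 0 h, 1.55 ± 0.0743 at 24 h, 8.46 ± 1.70 at 36 h and 18.5 ± 1.17 at 72 h. For Hscb and Nfu1 the ratio was 76.4 ± 11.3 at 72 h, against 0.476 ± 0.0836 at 0 h. Relative to the library's median gene, the count per TPM of Hscb at 72 h was 0.658 of that at 0 h. A ratio of counts would therefore differ from this one. In each of these TPM ratios the libraries at 72 h lay above all libraries at 0 h. Glrx5 to Bola3 was 5.43 ± 0.648 at 72 h, against 0.496 ± 0.0356 at 0 h. Lyrm4 to Nfs1, the partners of the desulfurase complex, was 0.592 ± 0.0104 at 0 h, 0.192 ± 0.00646 at 24 h, 3.27 ± 0.234 at 48 h and 2.68 ± 0.456 at 72 h.

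**Figure D3:**
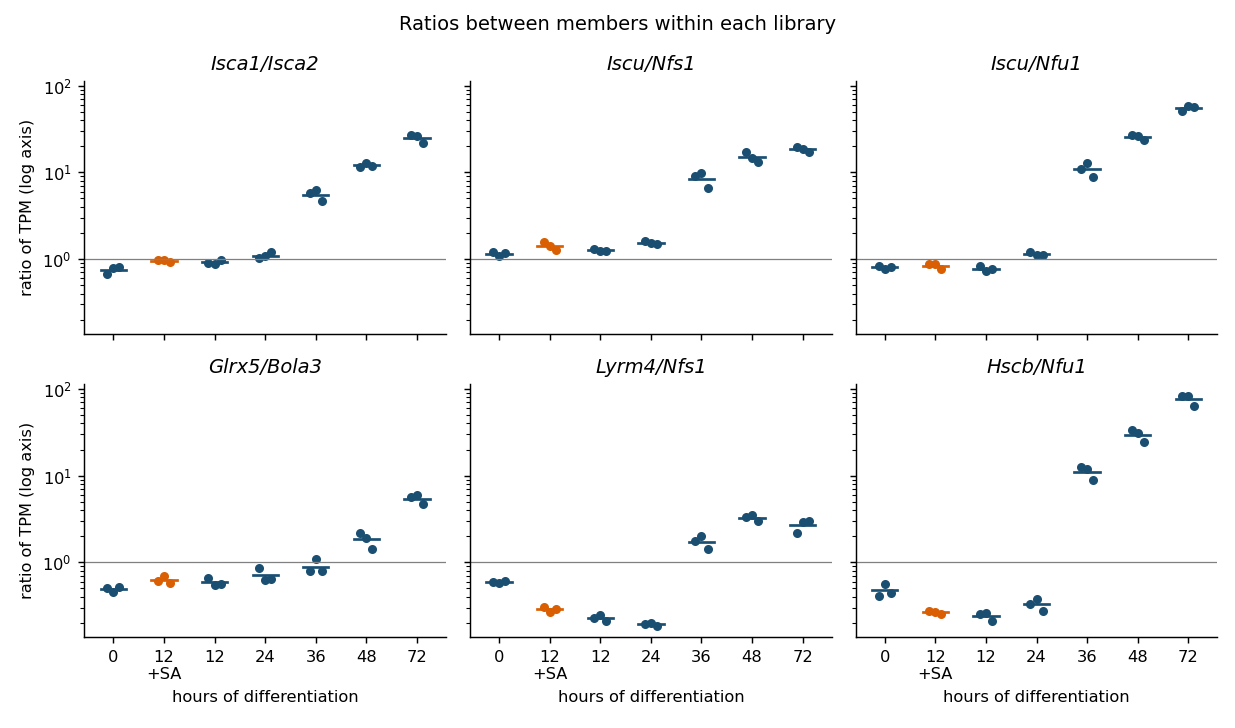
Ratio of TPM between pairs of the genes within each library (log axis) against hours of differentiation; points are libraries, short lines are means of 3, orange marks 12 h with SA, and the grey line is a ratio of 1. The Isca1 to Isca2 ratio averaged 25.03 at 72 h and 0.756 at 0 h, and the Lyrm4 to Nfs1 ratio was lowest at 24 h.

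The order of the messages by TPM turned over during the course. At 72 h the order was Isca1, Hscb, Iscu, Glrx5, Bola3, Lyrm4, Isca2, Nfs1 and Nfu1. There the libraries overlapped between neighbours from Isca1 to Glrx5, between Bola3 and Lyrm4, and between Isca2 and Nfs1. At 0 h the order was Bola3, Isca2, Nfu1, Iscu, Isca1, Glrx5, Nfs1, Hscb and Lyrm4. Neighbours whose libraries overlapped at 0 h were Isca2 and Nfu1, the run from Iscu to Nfs1, and Hscb and Lyrm4. Iscu, Hscb, Glrx5 and Isca1, grouped after their values were seen, made up 91.5% ± 1.27 of the 9 genes' summed TPM at 72 h, against 37.6% ± 0.718 at 0 h (SD, n = 3 each). The sum itself averaged 612 ± 3.35 TPM over the 0 h libraries, 913 ± 29.5 TPM over those at 24 h and 520 ± 136 TPM over those at 72 h.

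The profiles fell close together for some of the genes and apart for others. Over the 21 libraries, which share groups and depth, Pearson's r of log2 TMM-scaled CPM was 0.988 between Iscu and Hscb, 0.982 between Iscu and Isca1, 0.979 between Isca1 and Glrx5 and 0.974 between Hscb and Lyrm4. It was 0.813 between Isca2 and Bola3, 0.121 between Isca1 and Isca2, and -0.948 between Hscb and Nfu1. These values describe 7 groups of 3 libraries each, not 21 independent points. Among 8992 other well-counted genes, the profile most like that of Isca1 was that of Mxd1 (r = 0.998), followed by Epb41, which encodes a red cell membrane skeleton protein (r = 0.998). The nearest to Iscu were Suco (0.998) and Hdac5 (0.997), to Hscb Zfp874a and Dhx8 (0.998 each), to Glrx5 Wbp2 and Vps37b (0.998 each) and to Lyrm4 Sap30l (0.993) and Runx2 (0.992). The nearest to Bola3 were Add2 and Tuft1 (0.98 each), to Nfu1 3110040N11Rik and Brms1l (0.99 each), and to Isca2 Fbxw5 (0.967) and the proliferation marker Mki67 (0.949). Nfs1, whose TMM-scaled level changed least of the 9 at 72 h against 0 h, had no close match, the nearest being Setdb1 (0.711) and Parp4 (0.656).

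With SA for 12 h, none of the 9 genes differed from 12 h without SA by the test. SA inhibits aminolevulinate dehydratase, an early enzyme of heme synthesis, so the comparison asks about cells that differentiate while heme cannot be made. Of all tested genes 0.38% were called, 0.0162% higher and 0.364% lower. This is 47 genes, against 84 with the replicate number as a block, which also called 0 of the 9. In edgeR 0 of 9 had an unadjusted p under the threshold, the lowest being 0.0876 for Nfs1, and DESeq2's Wald test called 0 of 9 as well. On the TPM scale 0 of 9 were called, where 0.378% of all genes were. The log2 changes ran from -0.16 ± 0.09 for Nfs1 to 0.16 ± 0.19 for Lyrm4, with a median of -0.02, beside 0.02 over all tested genes. Nfs1 had 52.3, 62.8 and 58.5 TPM with SA, against 61.6, 63.7 and 65.7 TPM without. Lyrm4 had 15.8, 16.8 and 16.9 TPM with SA, against 14.0, 15.8 and 13.7 TPM without. For both genes the TPM of the groups overlapped, for Lyrm4 by a small margin. On TMM-scaled CPM the libraries of the groups did not overlap for 3 of 9 genes, Nfs1 and Nfu1 (lower with SA) and Lyrm4 (higher), where 24.2% of all tested genes did not overlap. Summed erythroid markers were lower in the SA libraries, at 13892 to 14968 CPM of the total, against 19071 to 19366 CPM without SA, and their part in these values was not tested.

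Of the other genes of the pathway most were lower at 72 h than at 0 h. Of 14 tested mitochondrial partners of the assembly genes 2 were called higher and 11 lower, with a median of -1.92. Over all tested genes 43.3% were called higher and 46.5% lower in this comparison, with a median of -0.13, which is the background for each list. They include Slc25a37, the mitochondrial iron importer mitoferrin (1.68 ± 0.22), and Hspe1, a mitochondrial chaperonin subunit (-3.99 ± 0.18). Hspa9, the chaperone that Hscb works with, fell by 1.35 ± 0.20 (adjusted p = 1.93e-06). Both Slc25a37 and the other called riser, the glutaredoxin Glrx2 (0.71 ± 0.10), were lower on the TPM scale, at -1.93 and -2.79. In the cytosolic assembly machinery 2 of 11 genes were higher and 6 lower, with a median of -1.39. The targeting factor Ciao1 was higher there (1.41 ± 0.09 on the TMM scale, -2.10 on the TPM scale), and Nubp1, part of the cytosolic scaffold, was lower (-4.46 ± 0.14).

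Among the client proteins the counts were as follows. Of 15 mitochondrial clients 3 were higher and 12 lower, with a median of -0.93. Ferrochelatase, Fech, rose by 4.27 ± 0.14 (adjusted p = 4.59e-17) and was the 1 gene of the list called higher on the TPM scale (0.41). Among the others, the complex I subunit Ndufs8 fell by 2.66 ± 0.13 and the outer membrane protein Cisd1 by 3.06 ± 0.17. Of 19 cytosolic and nuclear clients 0 were higher and 19 lower, with a median of -3.58. They include the DNA replication enzymes Dna2 (-5.23 ± 0.17) and Pole (-5.17 ± 0.18) and the iron regulatory protein Aco1 (-3.58 ± 0.10). Of the 12 genes of protein lipoylation, the pathway that Bola3 and Nfu1 serve, 1 was higher and 11 lower, with a median of -2.41. Lipoate synthase itself, Lias, was that 1 gene (0.40 ± 0.08 on the TMM scale, -3.19 on the TPM scale), and Gcsh, a lipoyl carrier protein, fell by 4.34 ± 0.15. On the TPM scale 14 of 14, 11 of 11, 14 of 15, 19 of 19 and 12 of 12 genes of these lists, in the order given, were lower, near the 90.9% of all genes called lower on that scale.

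**Figure D4:**
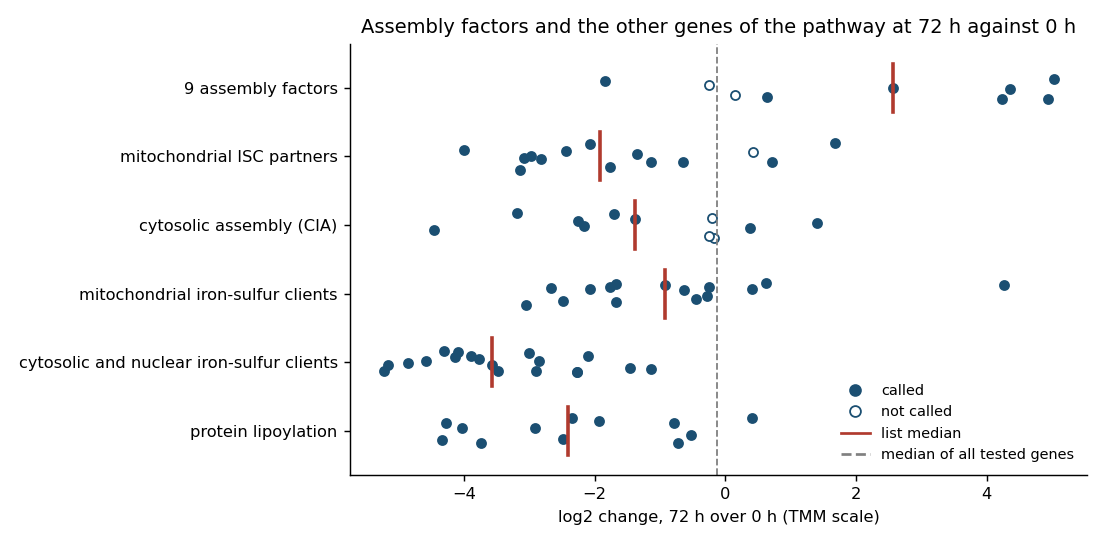
Log2 change at 72 h over 0 h on the TMM scale for the 9 assembly genes and 5 lists of other pathway genes; filled points passed the threshold, red lines are list medians and the dashed line is the median of all tested genes. The 9 genes have a median of 2.56, and the 5 lists have medians between -3.58 and -0.93.

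In the earlier steps the same lists held a few genes with marked changes. At 12 h against 0 h Slc25a37 rose by 4.68 ± 0.24 (adjusted p = 1.96e-12) and Fech by 1.78 ± 0.12 (adjusted p = 1.76e-10). Aco1 fell by 1.04 ± 0.09. In this step 2 of 14 mitochondrial partners were higher and 5 lower, and 4 of 11 cytosolic assembly genes higher and 3 lower. Of 15 mitochondrial clients 8 were higher and 1 lower, and of 19 cytosolic and nuclear ones 1 was higher and 13 lower. Of the 12 lipoylation genes 2 were higher and 6 lower, where 25.3% of all tested genes were higher and 27.6% lower. At 36 h against 24 h, the step in which Hscb and Iscu rose most, Fech rose by 1.77 ± 0.12 and had -0.30 on the TPM scale. In that step 1 of 14 mitochondrial partners was higher and 11 lower, and 2 of 11 cytosolic assembly genes were higher and 7 lower, where 34.1% of all tested genes were higher and 39% lower. Of the 12 lipoylation genes 1 was higher and 10 lower. Of the clients, 2 of 15 mitochondrial ones were higher and 9 lower, and 0 of 19 cytosolic and nuclear ones were higher and 18 lower. In cells with SA none of the genes in the 5 lists was called against 12 h without it, where 0.38% of all tested genes were.

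The estimated count and the TPM of Hscb moved apart more than those of the other 8 genes. The count per unit of TPM, divided by that of the library's median gene, was 0.128 ± 0.0112 for Hscb at 72 h, against 0.194 ± 0.0146 at 0 h (SD, n = 3 each). This is a ratio of 0.658, lower than in all but 2.4% of 11465 genes, while the other 8 genes had ratios between 0.868 and 1.05. Among those 8, the libraries of Isca2 (ratio 0.878) and Nfs1 (0.891) at 72 h also lay below all of their libraries at 0 h. The annotation (GENCODE M21) lists 4 Hscb transcripts, of 804, 452, 434 and 420 bases, the first with 702 coding bases. Which of them the reads came from was not tested. From the counts alone, Hscb had 5.28 ± 0.529 TMM-scaled CPM at 24 h, 85.5 ± 21.1 CPM at 36 h and 231 ± 35.1 CPM at 72 h.

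**Figure D5:**
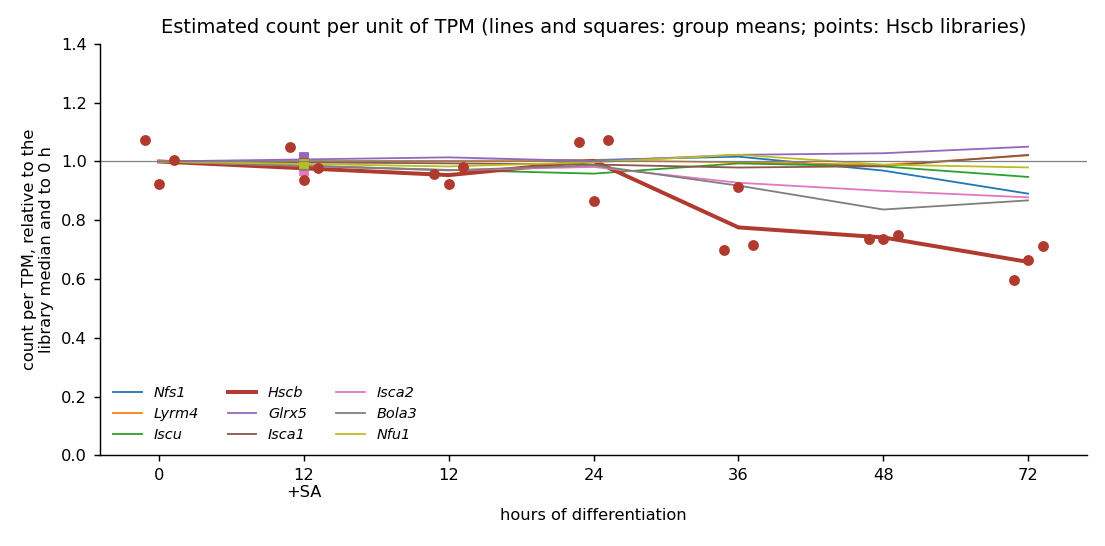
Estimated count per unit of TPM for the 9 genes, relative to the library's median gene and to the mean at 0 h, against hours of differentiation; lines join group means without SA, squares are means for 12 h with SA, and red points are the Hscb libraries. At 72 h Hscb stood at 0.658 and the other 8 genes between 0.868 and 1.05.

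Some of the genes share sequence with other annotated genes, and reads could be split among them. Transcripts of Isca1 were 99.0% identical to AK157302 over 1914 bases, but AK157302 had between 0 and 11 counts in every library. Isca1 also shares 116 identical bases with Gm49354, a gene on the same strand that had 84 to 106 counts at 72 h, against 4 to 8 at 0 h. Iscu was 98.4% identical to the pseudogene Gm16437 over 504 bases and Nfu1 95.7% identical to the pseudogene Gm7859 over 771 bases. Neither pseudogene has a row in the tables used here. Iscu also aligned with the counted genes Slc2a3 over 181 bases and Tulp3 over 167 bases, at lower identity than with Gm16437. Slc2a3 had 67 to 85 counts at 72 h, against 2194 to 2650 at 0 h. Tulp3 had 71 to 100 counts at 72 h, against 328 to 437 at 0 h. The part of Slc2a3 and Tulp3 in the Iscu counts was not tested. Nfs1 shares 258 identical bases with Gm28036, a gene on the same strand that had 148 to 271 counts at 72 h, against 1806 to 2587 at 0 h. The level of Nfs1 is uncertain to that extent. On the opposite strand Nfs1 shares 148 exon bases with Romo1, Isca1 314 with Etohd2 and Lyrm4 115 with Fars2. The libraries are strand-specific per the labels, but whether the counting used strand is not given in the sources used here. Fars2, a mitochondrial tRNA synthetase gene, had 32.0 to 41.1 TPM at 36 h, against 15.4 to 17.4 TPM at 24 h. It was thus higher in the step in which Lyrm4 was higher, and its part in the Lyrm4 counts was not tested. Romo1 had 14.2 to 20.8 TPM at 36 h, against 96.4 to 120.4 TPM at 24 h. It was thus lower in the step in which Nfs1 TPM were lower, and its part in the Nfs1 values was not tested.

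Promoters of Isca1, Glrx5 and Isca2 are printed because Isca1 and Glrx5 rose together in TMM-scaled CPM (r = 0.979). Isca2 had an r of 0.121 with Isca1 and of 0.08 with Glrx5. In TPM both Glrx5 and Isca2 fell at 36 h against 24 h (-0.85 and -1.88). RefSeq's promoter table (GRCm38.p6) held 7 of the 9 genes. Each sequence is the part of the 250 bases before the RefSeq start that holds no annotated exon, read 5′ to 3′ on the strand of the gene. Capitals mark every match, on either strand, to AGATAA, letters known to be bound by the erythroid factor Gata1, or to CCNCNCCC, letters known to be bound by the erythroid factor Klf1.
Isca1, chr13:59769859-59769964, minus strand: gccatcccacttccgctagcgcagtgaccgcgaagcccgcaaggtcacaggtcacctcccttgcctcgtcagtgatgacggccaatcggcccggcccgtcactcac
Glrx5, chr12:105032368-105032617, plus strand: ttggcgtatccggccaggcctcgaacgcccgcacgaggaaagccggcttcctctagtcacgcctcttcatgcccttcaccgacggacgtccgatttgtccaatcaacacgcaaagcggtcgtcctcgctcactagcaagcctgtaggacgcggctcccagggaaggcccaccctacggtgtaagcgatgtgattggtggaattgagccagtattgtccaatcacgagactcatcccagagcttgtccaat
Isca2, chr12:84773153-84773250, plus strand: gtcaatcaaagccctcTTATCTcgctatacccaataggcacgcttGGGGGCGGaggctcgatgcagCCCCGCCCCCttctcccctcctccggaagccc

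The Isca2 stretch held 1 match to AGATAA, on the minus strand of the gene 101 bases before the start, and 3 matches to CCNCNCCC, of which 2 overlap each other. The whole Isca2 window held another AGATAA match 228 bases before the start, outside the printed stretch. The Isca1 and Glrx5 stretches held neither motif. Of 32851 promoters of 250 bases, 10.0% held AGATAA and 45.9% held CCNCNCCC. A match describes the letters in these windows only.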

How the data were processed

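RNA sequencing of polyadenylated RNA was analysed in 21 libraries (7 groups of 3). The authors deposited a table of estimated counts per gene, not scaled for depth, and a table of TPM per gene. Of the counts 78.5% were whole numbers (tolerance 1e-06). The tools named in the submitters' processing notes are STAR 2.5.3a, kallisto and DESeq2, and the builds mm10 and GRCm38.p5. Which tool made which table is not given in the sources used here.

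The members and gene lists were chosen with earlier results of these data known. Members were matched by symbol and are named in every comparison. Of each list, at most 2 called genes per direction with the largest change and a mean count of at least 100 were named. One gene that this rule picks is not reported here. Hspa9, Fech and Aco1 are also named for their roles. Estimated counts were rounded, filtered by filterByExpr (minimum count 10), scaled by TMM and fitted with edgeR 4.0.16 (glmQLFit, glmQLFTest) on R 4.3.3, all 21 libraries in 1 model with group as the term. Tests were two-sided, adjusted by Benjamini-Hochberg over 12360 genes, with a threshold of 0.05. Each SE was taken from the test itself, as |log2 change| over the root of F. TPM were tested with limma 3.58.1 on log2(TPM + 1), for genes averaging at least 1 TPM. Scripts were tested on simulated data. Replicates differed beyond sampling noise in every pair, and most at the late times. The chi-square per gene between replicates was 6.6 to 28.2 in the groups up to 36 h. It was 22.9 to 152 at 48 h and 86.8 to 273 at 72 h. Likeness and pairing used 9001 genes averaging at least 100 counts. Copies were sought with NCBI BLAST 2.17.0.

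Same-numbered replicates deviated together, with every correlation over 0.1, in 3 comparisons: 24 h against 12 h (0.283 to 0.447), 72 h against 48 h (0.227 to 0.293) and 12 h with SA against 12 h (0.322 to 0.346). Alternatives were DESeq2 1.42.0, its size factors, no filter on counts, leaving globin genes out of library sizes, other TPM settings, the compared groups alone, a replicate block and leaving out each library.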

Additional observations from a re-analysis of the deposited data

How the results depend on the processing

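Counts of called members held within 1.5 times under the alternatives, except under limma on uncentred TPM: 24 h against 12 h had 3 with log2(TPM + 0.1), against 5, and 48 h against 36 h had 4 under all 3 uncentred settings, against 8. Signs of values called on at least 1 of the scales turned under those 3 settings only. Of the values below, Glrx5 and Iscu at 72 h against 48 h and Isca1 in both comparisons were called on the TMM scale only. Isca2 and Nfs1 were called under the 3 settings but not on the TMM scale. The other values were called on both scales, with opposite signs. With log2(TPM + 1), with or without the minimum, and then with log2(TPM + 0.1), Bola3 had -1.17 and -1.18 (36 h against 24 h) and -2.86 and -2.93 (72 h against 0 h). For Glrx5 they were -0.85 in both (36 h against 24 h) and -0.143 and -0.145 (72 h against 48 h). Isca1 had -0.073 and -0.074 (48 h against 36 h) and -0.37 in both (72 h against 48 h). Isca2 had -1.88 and -1.91 at 36 h against 24 h, Iscu -0.22 in both at 72 h against 48 h, and Lyrm4 -1.24 and -1.30 at 72 h against 0 h. Nfs1 had -1.88 and -1.95 (36 h against 24 h), -3.23 and -3.44 (72 h against 0 h), and -0.46 and -0.53 (72 h against 48 h). These settings differ from TMM in that they do not set libraries by the bulk of genes. A further 24 signs differed among values called in neither setting. Of the other member values 33 lost and 27 gained a call.

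Leaving out 1 library gave 6 to 6 called members at 12 h against 0 h, 5 to 5 at 24 h against 12 h, 7 to 7 at 36 h against 24 h, 8 to 8 at 48 h against 36 h, 6 to 8 at 72 h against 48 h, then 7 to 8 at 72 h against 0 h, 0 to 0 with SA and 8 to 9 over the course. With a replicate block 8 members were called at 12 h against 0 h, against 6. Same-numbered replicates had correlations of 0.098 to 0.346 there, the lowest just under the limit of 0.1, so pairing was not settled. The block changed no other count. Of all tested genes 47 were called with SA, against 151 by DESeq2, 465 with the compared groups alone, 84 with the block, 114 with no TPM minimum, 74 with no count filter, 16 with log2(TPM + 0.1) and 11 to 31 with any 1 library of these groups left out. At 12 h against 0 h 3724 genes of all were called with log2(TPM + 0.1), against 6539. Low counts limit Nfu1 most, with 100 to 102 counts per library at 72 h.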
